A study of Mus musculus with 9 samples.

Results

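The guanylate-binding proteins (GBPs) and immunity-related GTPases (IRGs) examined here are 10 genes, 7 Gbp genes (Gbp2, Gbp3, Gbp4, Gbp5, Gbp6, Gbp7 and Gbp9) and 3 IRG genes (Irgm1, Igtp and Iigp1). They were chosen by symbol from a table of 39253 genes, and all 10 were found and passed the low-count filter of each test. The table holds RNA sequencing of mouse CD4+ T cells on day 9 of experimental autoimmune encephalomyelitis (EAE), an autoimmune attack on brain and spinal cord, induced by immunization, that serves as a mouse model of multiple sclerosis. There were 4 libraries labelled wildtype and 5 labelled ERα knockout (KO), for estrogen receptor alpha, the product of Esr1, and wildtype and knockout below mean these labels. The labels place wildtype replicates 1 and 2 and knockout replicates 1, 2 and 3 in batch 1, and wildtype replicates 3 and 4 and knockout replicates 4 and 5 in batch 2. All groups shared the disease, the day and the cell type. The series title concerns ERα in dendritic cells, and the labels do not say which cells carry the knockout, from which tissue the T cells came, or the sex or age of the mice.

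GBPs and IRGs are interferon-inducible GTPases that act inside the cell that makes them. They gather on the membranes that enclose intracellular bacteria and protozoa, and they help to disrupt those compartments. Interferon gamma, which T helper 1 cells secrete, binds its receptor, activates the kinases JAK1 and JAK2, and induces the factor IRF1, which helps to switch on many of these genes. T cells express them as well as secreting the cytokine, and in CD4+ T cells Irgm1 is known for limiting cell death after exposure to interferon gamma.

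The promoter sequences are shown because they hold motifs that the STAT family and the interferon regulatory factors are known to bind. RefSeq promoter windows of GRCm38.p6, from 250 bases before to 50 bases after each transcription start, were at hand for 6 of the 10 members, Gbp2, Gbp3, Gbp5, Gbp7, Irgm1 and Igtp. Both strands were searched for the core of the interferon-stimulated response element (ISRE), which is GAAA repeated after 2 bases of any kind, and for the dimer element of STAT factors, TTCNNNGAA. Capitals mark the matches to either motif, and an ISRE core on the other strand reads as TTTC repeated after 2 bases. Each stretch is printed 5′ to 3′ on the strand of the gene and covers the part of the window that holds the matches.

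Gbp5 (chr3:142496684-142496933, plus strand): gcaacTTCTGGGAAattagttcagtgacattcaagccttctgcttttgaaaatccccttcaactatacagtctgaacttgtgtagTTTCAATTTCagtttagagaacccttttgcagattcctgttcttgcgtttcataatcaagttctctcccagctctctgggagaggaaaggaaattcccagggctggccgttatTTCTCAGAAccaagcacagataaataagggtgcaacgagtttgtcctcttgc

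Gbp7 (chr3:142530216-142530335, plus strand): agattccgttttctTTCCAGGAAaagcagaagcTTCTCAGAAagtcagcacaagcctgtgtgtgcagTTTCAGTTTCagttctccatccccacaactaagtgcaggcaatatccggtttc

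Gbp3 (chr3:142559924-142560043, plus strand): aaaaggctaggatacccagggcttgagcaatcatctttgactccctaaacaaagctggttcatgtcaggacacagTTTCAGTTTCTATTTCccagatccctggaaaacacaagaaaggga

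Gbp2 (chr3:142620543-142620662, plus strand): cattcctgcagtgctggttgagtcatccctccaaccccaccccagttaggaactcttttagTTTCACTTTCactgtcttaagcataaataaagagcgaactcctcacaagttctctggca

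Irgm1 (chr11:48871421-48871540, minus strand): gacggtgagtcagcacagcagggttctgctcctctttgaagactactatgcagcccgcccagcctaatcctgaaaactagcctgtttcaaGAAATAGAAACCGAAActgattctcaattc

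Igtp (chr11:58199436-58199555, plus strand): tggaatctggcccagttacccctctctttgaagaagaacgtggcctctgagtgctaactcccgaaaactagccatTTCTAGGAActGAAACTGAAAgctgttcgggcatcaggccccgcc

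The ISRE core was present in 6 of the 6 members with a window, against 3.44% of 32851 RefSeq promoter windows of the same length. The STAT element was present in 3 of the 6, Gbp5, Gbp7 and Igtp, against 8.3% of all windows, and the same 3 members held both motifs, against 0.454% of all windows. Gbp3 has a second window with no match. The ISRE core began 165 bases before the start in Gbp5, and between 59 and 24 bases before it in the other 5. It occurred as a pair of overlapping matches in Gbp3 and in Irgm1. In Igtp the STAT element began 45 bases and the ISRE core 34 bases before the start, so that the elements lay nearly side by side. These matches describe letters in the reference sequence and were not tested for binding.

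**Figure D1:**
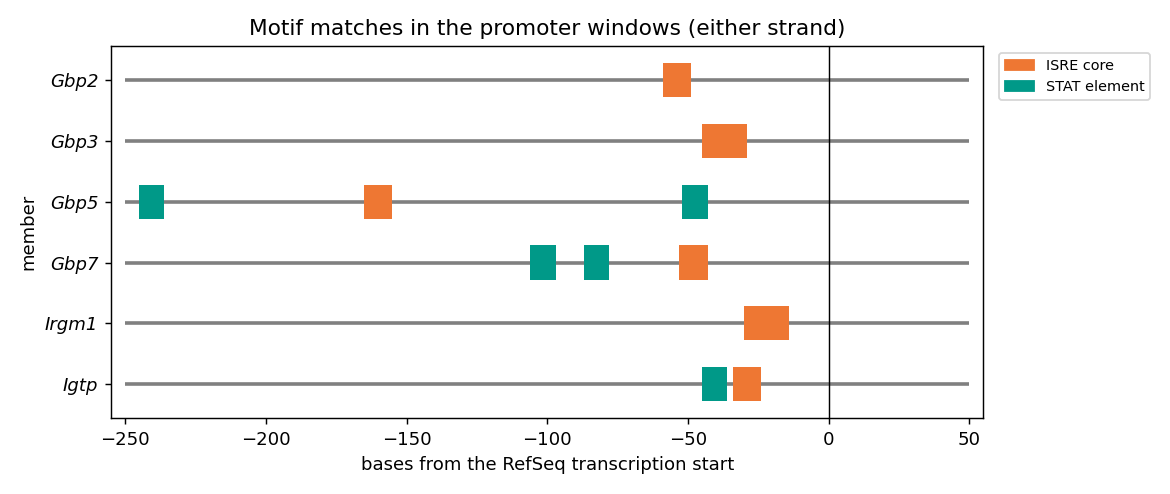
Positions of the motif matches in the 6 promoter windows, with distance from the RefSeq transcription start in bases on the horizontal axis and 1 line per member. Orange blocks are ISRE cores and green blocks are STAT elements. Every window drawn has an ISRE core, and those of Gbp5, Gbp7 and Igtp also have a STAT element.

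The libraries differed in depth and in content. Batch 1 totals lay between 4926347 and 11296593 counts, and batch 2 totals between 45013017 and 69844721. Esr1 stood at 1.45 and 1.69 CPM (counts divided by the library total, times 1e6) in the batch 2 wildtype and 0.143 and 0.256 CPM in the batch 2 knockout libraries, but at 4.87 to 16.2 CPM in all batch 1 libraries, where it did not separate the labelled genotypes (4.87 and 16.2 CPM for wildtype against 9.58, 6.31 and 13.0 CPM for knockout), so batch 1 directions rest on the labels alone. The T cell genes Cd4 and Cd3e were at 925 to 1320 and 1070 to 1520 CPM over the 9 libraries. Xist was at 1740 CPM or more in 4 of the 5 batch 1 libraries and at 30.4 CPM in knockout replicate 3, which also had 55.4 CPM of the Y-linked gene Ddx3y, while the batch 2 libraries had at most 0.289 CPM and 93.6 to 107 CPM of Ddx3y. Thus the batches also differed in the sex markers, and knockout replicate 3 stood apart from the rest of batch 1.

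Among the 4 members on chromosome 3, Gbp2, which gathers at the vacuole of Toxoplasma, varied most. It was at 69.8 and 34.7 CPM in the wildtype and 78.9, 120 and 22.7 CPM in the knockout libraries of batch 1. In batch 2 this gene stood at 87.2 and 59.8 CPM in wildtype against 70.8 and 83.0 CPM in knockout libraries. The genotypes overlapped in both batches, and knockout replicates 2 and 3 held the highest and the lowest value of batch 1. Gbp3 was at 22.2 and 17.7 CPM in wildtype against 28.2, 51.0 and 12.4 CPM in knockout libraries of batch 1, and at 24.8 and 27.5 against 29.8 and 35.4 CPM in batch 2. Its genotypes overlapped in batch 1, while both knockout libraries of batch 2 lay above both wildtype libraries.

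Gbp5, which promotes assembly of the NLRP3 inflammasome in macrophages, was at 29.4 and 18.9 CPM in wildtype against 26.9, 44.2 and 20.3 CPM in knockout libraries of batch 1. In batch 2 the values were 30.2 and 26.5 CPM in wildtype against 32.3 and 37.9 CPM in knockout libraries, which did not overlap. Gbp7, known for a part in assembly of the NADPH oxidase, was at 186 and 144 CPM in wildtype against 162, 224 and 95.1 CPM in knockout libraries of batch 1. In batch 2 Gbp7 was at 185 and 160 CPM against 173 and 194 CPM, and its genotypes overlapped in both batches.

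The members on chromosome 5 were Gbp4, Gbp6 and Gbp9. Gbp4 was at 247 and 153 CPM in wildtype against 225, 315 and 135 CPM in knockout libraries of batch 1, and at 197 and 192 against 196 and 210 CPM in batch 2. The 4 libraries of batch 2 were thus nearly level for this gene. Gbp6 was at 140 and 72.5 CPM in wildtype against 103, 145 and 46.4 CPM in knockout libraries of batch 1, and at 105 and 89.7 against 86.6 and 108 CPM in batch 2, with overlap in both. Gbp9 was at 216 and 143 CPM in wildtype against 132, 199 and 98.8 CPM in knockout libraries of batch 1. In batch 2 this gene stood at 136 and 130 CPM in wildtype against 148 and 142 CPM in knockout libraries. Gbp9 was the member whose batch 1 knockout mean lay furthest below wildtype in proportion, at 144 ± 51.3 CPM (SD, n = 3) against 180 ± 51.4 CPM (SD, n = 2), whereas in batch 2 both knockout libraries lay above both wildtype libraries.

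Of the IRG genes, Irgm1 and Igtp (also called Irgm3) encode regulatory IRGs, which keep the effector IRGs inactive on the membranes of the cell itself. Irgm1 was at 65.1 and 34.9 CPM in wildtype against 59.5, 62.8 and 34.5 CPM in knockout libraries of batch 1, and at 51.8 and 46.7 against 47.0 and 64.0 CPM in batch 2. Igtp was at 131 and 75.1 CPM in wildtype against 141, 200 and 76.9 CPM in knockout libraries of batch 1, and at 165 and 119 against 134 and 170 CPM in batch 2. Both genes overlapped between genotypes in both batches. Iigp1 (also called Irga6) encodes an effector IRG that coats pathogen vacuoles. It was at 44.1 and 27.0 CPM in wildtype against 48.0, 102 and 27.0 CPM in knockout libraries of batch 1, and at 36.5 and 34.1 against 41.1 and 58.6 CPM in batch 2. Knockout replicates 2 and 5 held the highest Iigp1 value of their batch, and in batch 2 the genotypes did not overlap.

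**Figure D2:**
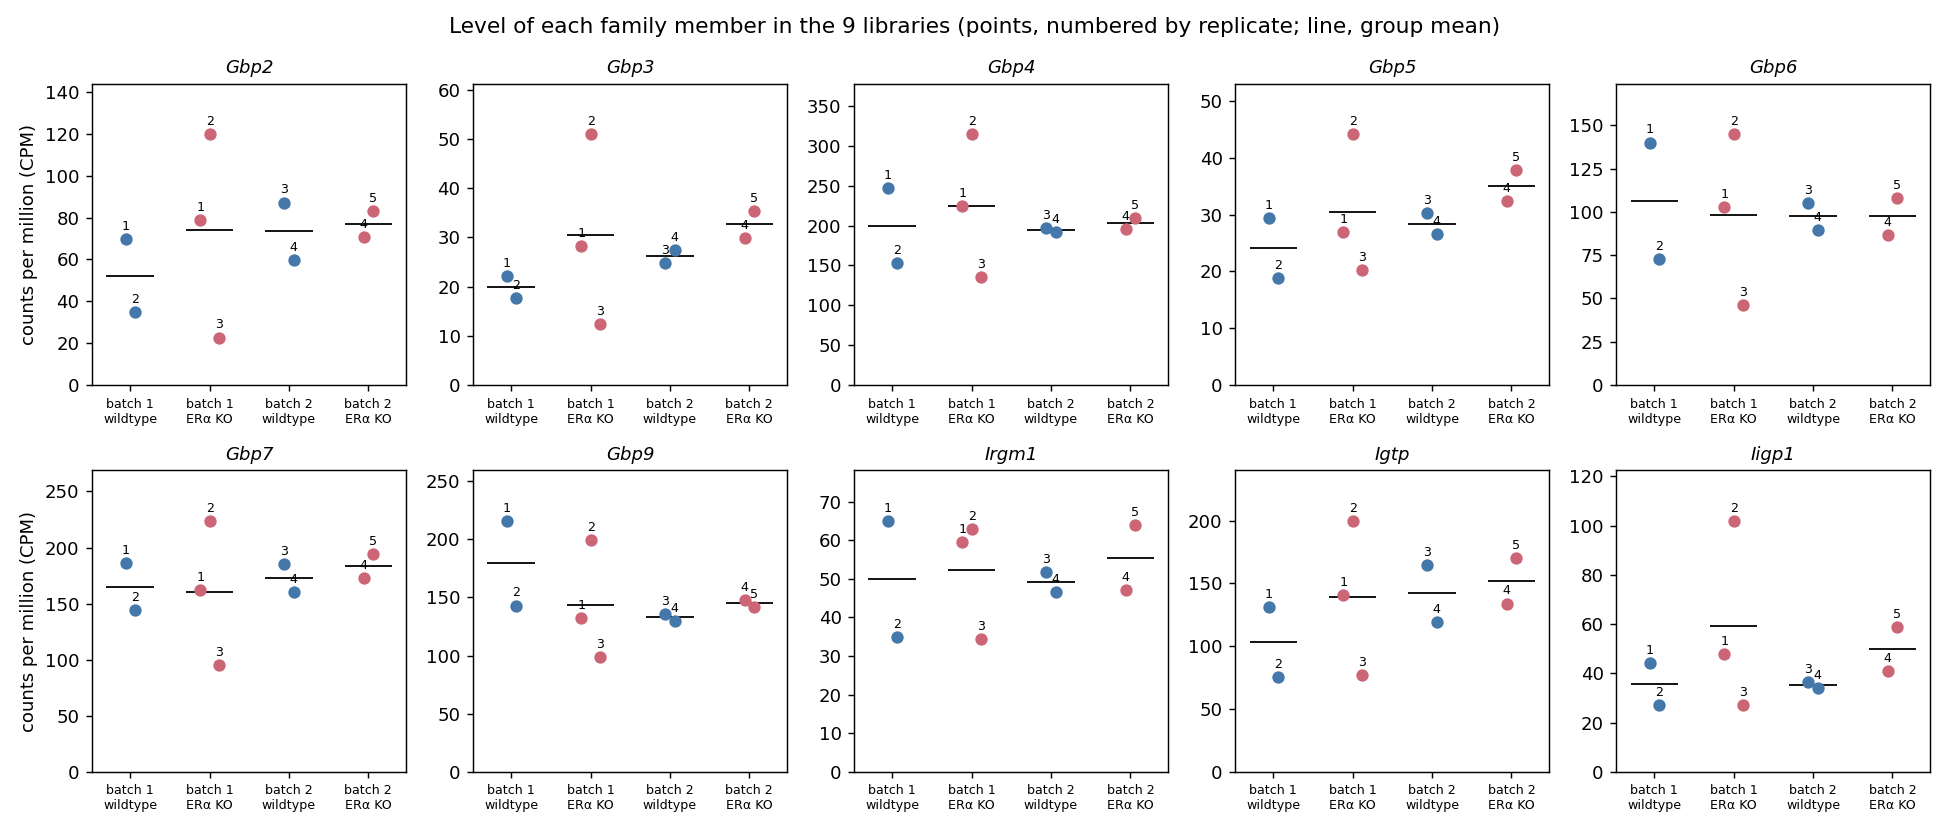
CPM of each member on linear axes that start at 0, 1 panel per gene, with 1 point per library numbered by replicate and a line at the group mean, blue for wildtype and red for ERα KO. The batch 1 libraries are spread more widely than those of batch 2, with knockout replicate 2 at or near the top and knockout replicate 3 at or near the bottom of batch 1.

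Per kilobase of merged exon length, Igtp had the highest level, with a median of 66.3 CPM per kb over the 9 libraries, and it lay above Gbp4, the next at 43.4 CPM per kb, in 9 of 9 libraries. Gbp4 in turn lay above Gbp6 (39.6 CPM per kb) in 9 of 9. Gbp6, Gbp9 (32.0), Gbp7 (30.8) and Gbp2 (28.1 CPM per kb) formed a middle group in which neighbours changed places, each lying above the next in 6 or 7 of 9 libraries, as did Gbp2 and Irgm1 (22.5 CPM per kb). Irgm1 lay above Iigp1 (13.1 CPM per kb) in 8 of 9 and Iigp1 above Gbp5 (9.62 CPM per kb) in 9 of 9 libraries. Gbp5 and Gbp3 (9.00 CPM per kb) closed the order and changed places in some libraries. As a share of the summed CPM of the 10 members, Gbp4 took 19.06% to 23.71%, and Iigp1 moved from 3.59% in wildtype replicate 3 to 6.95% in knockout replicate 2.

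The comparison of knockout with wildtype within a batch asks whether these genes differ in CD4+ T cells by the Esr1 genotype of the label. None of the 10 members passed an adjusted p of 0.05 over all genes in edgeR's quasi-likelihood test, in either batch. In batch 1, 6 members had a positive and 4 a negative log2 fold change of knockout over wildtype, with a median of 0.12 against 0.04 over all 24600 genes tested, of which 46.2% were negative. In batch 2, 9 were positive and 1 negative, with a median of 0.11 against -0.02 over all 15910 genes tested, of which 52.2% were negative. The background of called genes was 0.126% in batch 1 (31 genes; 0.0732% higher and 0.0528% lower) and 0% in batch 2. At an unadjusted p under 0.05 there were 0 members against 1.97% of genes in batch 1, and 1 member, Iigp1, against 7.77% of genes in batch 2. DESeq2's Wald test also called 0 members in each batch.

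Iigp1 had the highest fold change in both batches, with log2 fold changes of 0.61 ± 0.56 (SE) in batch 1 and 0.50 ± 0.20 in batch 2 (edgeR adjusted p = 0.640 in batch 2). Gbp3 had 0.53 ± 0.52 and 0.32 ± 0.15 (edgeR adjusted p = 0.678 in batch 2), and Gbp5 had 0.20 ± 0.39 and 0.31 ± 0.16. These were the members whose fold change in batch 2 was over 1.5 times its standard error. Gbp9 had -0.46 ± 0.39 in batch 1 and 0.13 ± 0.11 in batch 2. Gbp2 had 0.39 ± 0.89 and 0.06 ± 0.23, and its batch 1 error was the widest of the 10. For Gbp4 (0.04 ± 0.40 and 0.07 ± 0.10), Gbp6 (-0.24 ± 0.48 and -0.0013 ± 0.16) and Gbp7 (-0.15 ± 0.39 and 0.09 ± 0.14) the fold change was smaller than its error in both batches. The same held for Irgm1 (-0.09 ± 0.39 and 0.17 ± 0.18) and Igtp (0.30 ± 0.42 and 0.09 ± 0.22).

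In batch 2, 4 of the 10 members (Gbp3, Gbp5, Gbp9 and Iigp1) had both knockout libraries above both wildtype libraries and 0 had them below, against 19.6% and 20.5% of all genes tested. In batch 1 all 10 members overlapped, against a background of 10.9% of genes with all knockout libraries above and 5.19% with all below. Across the batches 6 members were positive in both, Gbp6 was negative in both, and Gbp7, Gbp9 and Irgm1 were negative in batch 1 and positive in batch 2, and the signs of Gbp4 and Irgm1 in batch 1 and of Gbp6 in batch 2 flipped under another scaling. The share of all genes with the same sign in both batches was 44.9%.

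**Figure D3:**
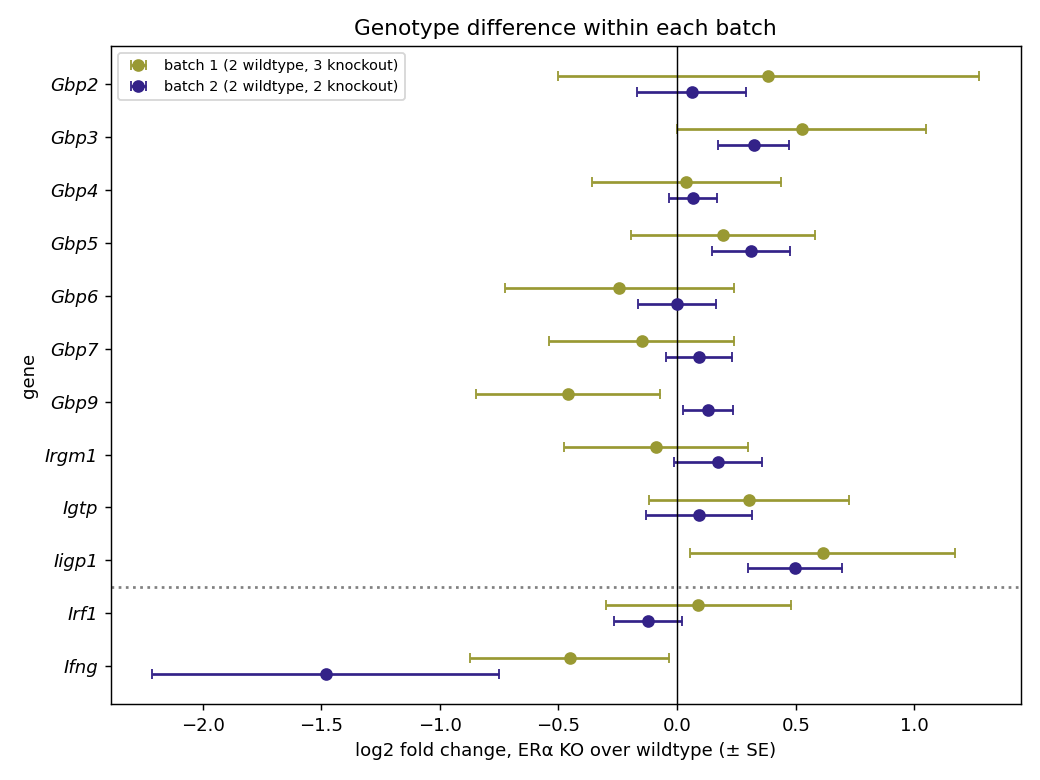
Log2 fold change of ERα KO over wildtype for the 10 members and, below the dotted line, Irf1 and Ifng, with the edgeR estimate as a point and its standard error as a bar, in batch 1 and batch 2. The batch 1 bars of the members are wider than those of batch 2, and Ifng lies furthest left, at -1.48 in batch 2.

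The batch 1 median depended on single libraries. It was 0.71 without wildtype replicate 1, with 10 of 10 members positive, and -0.32 without wildtype replicate 2, with 2 positive. Without knockout replicate 2 it was -0.26, with 0 of 10 members positive, and without knockout replicate 3 it was 0.42. With DESeq2 size factors the batch 1 median of the members was -0.02, while the median of all genes moved to -0.08. In batch 2 the median ranged from 0.01 without knockout replicate 5 to 0.29 without wildtype replicate 3.

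With all 9 libraries and batch as a term, 8 of 10 members were positive with a median of 0.18, and 0 were called (lowest edgeR adjusted p = 1), against 0.00451% of 22197 genes. Without wildtype replicate 2 that median was -0.10, and without knockout replicate 2 it was 0.0031. The interaction, which tests whether the genotype difference depends on the batch, called 0 members (lowest edgeR adjusted p = 0.862, for Gbp9 at 0.48 ± 0.42) against 0.00451% of genes. At an unadjusted p under 0.05 both tests gave 0 members, against 2.36% and 8.36% of genes, and DESeq2's Wald test called 0 members in both.

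The batch term, batch 2 over batch 1 at equal genotype, was positive for 10 of 10 members with TMM scaling, with a median log2 difference of 0.30, but for 8 of 10 with DESeq2 size factors (median 0.23) and for 6 of 10 with upper-quartile scaling (median 0.10). In plain CPM, Gbp4, Gbp6 and Iigp1 had lower means in batch 2 in both genotypes (Gbp4 194 against 200 CPM for wildtype, 203 against 225 CPM for knockout), so the direction depends on the scaling. The median of all genes was -0.76, -0.84 and -0.97 under the 3 scalings. No member passed the test (lowest edgeR adjusted p = 0.122, for Gbp5), although 64.1% of genes did and 47.3% were called lower in batch 2. At an unadjusted p under 0.05 there were 0 members against 67.8% of genes. Without knockout replicate 2, 4 members passed, Gbp3, Gbp5, Gbp7 and Igtp. Igtp had the highest difference, at 0.49 ± 0.29, and Gbp9 the lowest, at 0.02 ± 0.21.

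The members varied together from library to library within a genotype. In batch 1 their summed CPM was 1151 and 720.8 in the wildtype and 1005, 1463 and 569.1 in the knockout libraries, and in batch 2 it was 1019 and 884.4 against 958.8 and 1103. Knockout replicate 2 was the highest library of batch 1 for 8 of 10 members (wildtype replicate 1 for Gbp9 and Irgm1), against 9.27% of all genes tested. Knockout replicate 3 was the lowest for 7 (wildtype replicate 2 for the other 3), against 14.1% of genes. These shares cover genes of all levels that passed the filter. Over them knockout replicate 3 was the highest library for 51.5% and wildtype replicate 1 the lowest for 45.5%. Knockout replicate 3 and wildtype replicate 2 were the shallowest libraries of batch 1, at 5069169 and 4926347 counts. Knockout replicate 3 was also the only batch 1 library with Ddx3y counts (55.4 CPM), and its Xist was the lowest of that batch (30.4 CPM). The parts of depth and of the sex-marker difference in the members' variation were not tested. In batch 2, knockout replicate 5 was the highest for 8 of 10 (19.6% of genes) and wildtype replicate 4 the lowest for 8 of 10 (22.9% of genes). Odorant, vomeronasal and taste receptor genes (1501 genes) took 0.252% of counts in knockout replicate 3 and 0.151% in wildtype replicate 2, the libraries with the lowest summed members of batch 1. They took 0.0564% to 0.11% in the other batch 1 libraries and 0.00256% to 0.00369% in batch 2, and their part in the members' variation was not tested.

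The span from the highest to the lowest library of batch 1 ran from 1.88-fold for Irgm1 to 5.28-fold for Gbp2, against a median of 1.54-fold over 10158 genes with a mean of at least 10 CPM. In batch 2 it ran from 1.10-fold for Gbp4 to 1.72-fold for Iigp1, against a median of 1.27-fold over 8812 genes. On log2(CPM + 1), with each batch centred on its own mean, the members averaged 0.74 in knockout replicate 2 and -0.72 in knockout replicate 3, which carry the same label. The pooled SD of this member average between libraries of a group and batch was 0.45. Across the 9 libraries the 45 pairs of members had a median Pearson r of 0.89, with a range of 0.64 to 0.98. Without knockout replicates 2 and 3 the median was 0.78 and the range -0.07 to 0.98. All members of a library share its depth and scaling, and these correlations are a description.

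Likeness to the member average was computed for 10081 genes with a mean of at least 5 CPM in each batch. Cd74, the MHC class II invariant chain, had r = 0.970 and Spearman's rho = 0.933 over 9 libraries, and r = 0.897 without knockout replicates 2 and 3, the libraries farthest from the median. Other genes among the most alike were Tbl1xr1 (r = 0.969, or 0.944 without that pair), Rel (0.966, or 0.903), an NF-κB subunit, Zfp758 (0.965, or 0.899), BC031181 (0.964, or 0.934), Mbnl1 (0.964, or 0.912) and Rbbp7 (0.963, or 0.855). The median r over all genes was 0.17, and 0.923% of genes reached 0.9.

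Within the interferon gamma pathway the likeness differed from gene to gene. Irf1, which encodes a factor that interferon gamma induces, had r = 0.941, or 0.740 without the same pair of libraries, and the kinase Jak2 had 0.930, or 0.933 without them. Jak1 had 0.572, or 0.604 without them. The receptor chain Ifngr1 had 0.165 with the pair and 0.682 without it, and Ifngr2 had -0.247 and -0.215. Ifng, the cytokine itself, had 0.380, or -0.07 without them, and the feedback inhibitor Socs1 had -0.351, or -0.568 without them.

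**Figure D4:**
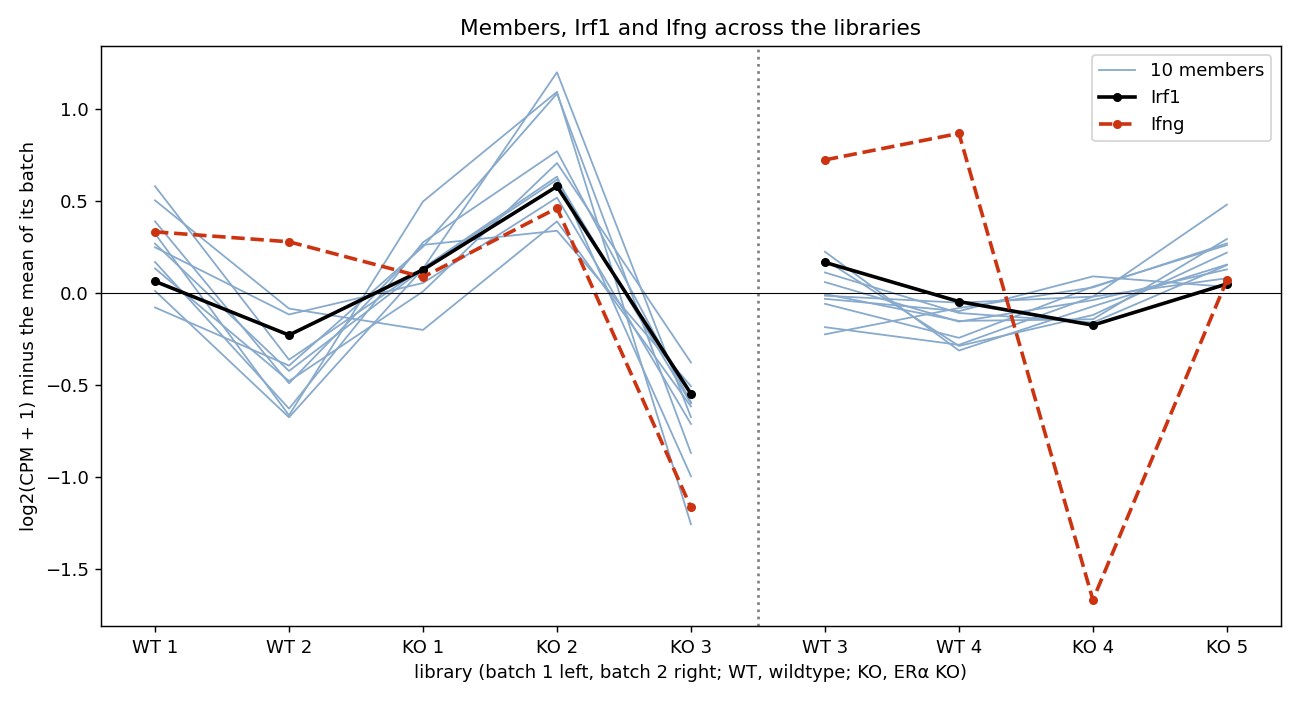
Log2(CPM + 1) minus the mean of its batch for the 10 members (thin blue lines), Irf1 (black) and Ifng (dashed red) in the 5 libraries of batch 1 and the 4 of batch 2; lines only join the values of a gene. Irf1 and Ifng both lie on the side of the members in knockout replicates 2 (0.58 and 0.46) and 3 (-0.55 and -1.16), and Ifng is low in knockout replicate 4, where the members are near their batch mean.

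Ifng was at 21.3 and 20.5 CPM in the wildtype and 17.8, 23.4 and 6.90 CPM in the knockout libraries of batch 1. In batch 2 this gene stood at 16.4 and 18.2 CPM in wildtype against 2.31 and 10 CPM in knockout libraries, so that both knockout libraries lay below both wildtype libraries. Its log2 fold changes were -0.45 ± 0.42 and -1.48 ± 0.73, and neither passed (edgeR adjusted p = 1 and 0.707). In batch 1, knockout replicate 3 had the lowest and knockout replicate 2 the highest value of both Ifng and the summed members. In knockout replicate 4, with the lowest Ifng of batch 2, the summed members were at 958.8 CPM, between the 2 wildtype libraries of that batch. Irf1 was at 172 and 140 CPM in wildtype against 180, 246 and 112 CPM in knockout libraries of batch 1, and at 197 and 170 against 155 and 181 CPM in batch 2, with fold changes of 0.09 ± 0.39 and -0.12 ± 0.15. The receptor chain Ifngr1 had 0.11 ± 0.37 and 0.01 ± 0.15, Ifngr2 -0.23 ± 0.35 and 0.30 ± 0.18, Jak1 -0.35 ± 0.37 and 0.29 ± 0.12, Jak2 -0.14 ± 0.37 and 0.07 ± 0.14, and Socs1 0.32 ± 0.37 and -0.15 ± 0.13. Of the 18 pathway genes listed, 18 were tested and 0 were called in each batch, with 9 positive and 9 negative in batch 1 and 10 positive and 8 negative in batch 2. The medians were -0.03 and 0.02. Ciita, the activator of MHC class II genes, had the smallest p of the list in batch 1, with 0.85 ± 0.41, and -1.27 ± 0.52 in batch 2. Irf2, a relative of Irf1, had the smallest p in batch 2, with 0.25 ± 0.09.

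Other genes of the same families gave 16 tested of 20 listed, and 0 were called in each batch, with medians of 0.18 and 0.17 and 12 and 11 genes positive. At an unadjusted p under 0.05 in edgeR there were 2 in batch 1 and 1 in batch 2, against 1.97% and 7.77% of all genes tested. With all 9 libraries and batch as a term there were 2, against 2.36% of genes, and 0 were called. F830016B08Rik, an interferon-inducible GTPase gene, had the highest fold change of this list in batch 2, at 1.06 ± 0.33 (edgeR adjusted p = 0.625), and 0.91 ± 0.40 in batch 1 (edgeR adjusted p = 1). It was at 8.06 and 16.8 CPM in wildtype against 19.7, 34 and 18.5 CPM in knockout libraries of batch 1, and at 4.01 and 4.71 against 6.81 and 11.3 CPM in batch 2. In each batch its knockout libraries lay above its wildtype libraries, as did 10.9% of all genes tested in batch 1 and 19.6% in batch 2. The share of genes that did so in both batches was not computed, and this gene was named for its small p in these data. Gm4951 had 1.28 ± 0.54 in batch 1 and 0.83 ± 0.54 in batch 2, and Gm12250 0.23 ± 0.39 and 0.47 ± 0.19.

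None of the nearest relatives of the members was called in either batch. Gbp8 had 0.03 ± 0.42 and 0.06 ± 0.13, Gbp10 0.16 ± 0.53 and 0.23 ± 0.26, and Gbp11 -0.19 ± 0.46 and -0.24 ± 0.43. Gbp2b, which was at 0.859 to 3.90 CPM, had 0.01 ± 0.72 and 0.59 ± 0.80. Irgm2, the third regulatory IRG, had 0.29 ± 0.39 and -0.20 ± 0.19. The effector IRGs Tgtp1 and Tgtp2 had 0.20 ± 0.40 and 0.32 ± 0.22, and -0.25 ± 0.39 and 0.30 ± 0.27. Several of these genes lie in tandem with near-identical copies, so the division of shared reads among them is uncertain. Whether reads were also shared with the members was not tested, and this limit applies to the members' CPM, order and shares too.

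Lists of related function had few or no calls. Of 24 and 22 other interferon gamma induced genes tested in batch 1 and batch 2, 0 were called, with medians of -0.01 and 0.11, and Parp14 had the smallest p in batch 2 (0.25 ± 0.09). Of 31 type I interferon genes, 1 was called lower in batch 1, Oasl2, a 2′-5′ oligoadenylate synthetase-like gene, at -2.55 ± 0.41 (edgeR adjusted p = 0.000133), and 0 in batch 2, where it had -0.55 ± 0.53. The medians of that list were -0.48 and -0.12, with 26 and 21 of 31 genes negative against 46.2% and 52.2% of all genes tested, beside 0.12 (or -0.02 with DESeq2 size factors) and 0.11 for the 10 members. The Oasl2 call was lost with upper-quartile scaling. The 31 genes summed to 2035 and 1369 CPM in wildtype against 1728, 1866 and 1340 CPM in knockout libraries of batch 1. In batch 2 they summed to 2433 and 1869 against 1857 and 1987 CPM, so the sums of the genotypes overlapped in both batches. Samhd1 alone gave 398 to 624 CPM of these sums in batch 1 and 494 to 659 CPM in batch 2. Its fold changes were positive, at 0.12 ± 0.38 and 0.17 ± 0.13. In wildtype replicate 3, Rsad2 was at 354 CPM, against 24.6 to 27.5 CPM in the other batch 2 libraries. Ifit1 and Ifi27l2a, next to Oasl2 by p in batch 1, had wildtype replicate 2 among the knockout libraries. It was at 16.2 against 10.5 to 21.8 CPM, and at 24.2 against 17.8 to 33.3 CPM. The LC3 conjugation system, which steers GBPs and IRGs to their target membranes, had 0 of 15 genes called, with medians of -0.20 and -0.05. Of 10 inflammasome genes 0 were called, with medians of 0.19 and -0.13. At an unadjusted p under 0.05 these lists gave 0 and 1, 4 and 2, 0 and 2, and 0 and 0 genes in batch 1 and batch 2, in the order given, against 1.97% and 7.77% of all genes tested.

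Markers of other cells varied between libraries too. The 6 B cell markers summed to 60.0 and 43.6 CPM in the wildtype and 66.8, 80.2 and 38.9 CPM in the knockout libraries of batch 1, and to 12.6 and 7.78 against 10.1 and 13.2 CPM in batch 2, where Ms4a1 was at 0 in wildtype replicate 4. Their highest and lowest libraries were those of the summed members in both batches. Cd74, which B cells and other antigen-presenting cells express strongly, peaked in knockout replicate 2 at 364 CPM, with 41.6 to 146 CPM in the other batch 1 libraries and 71.1 to 84.3 CPM in batch 2. Their part in the members' variation was not tested. In bulk RNA, fewer cells of a type and less RNA per cell cannot be told apart.

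The 9 macrophage and monocyte markers summed to 128.7 to 317.8 CPM in batch 1 and to 88.73 to 174.8 CPM in batch 2. In batch 1 the sum was 317.8 CPM in knockout replicate 3, where the members were lowest. It was 304.9 CPM in knockout replicate 2, where the members were highest. Neutrophil markers (10 genes) were at 337.8 to 1264 CPM in batch 1 and 6.093 to 235.6 CPM in batch 2. Dendritic cell markers (7 genes) were at 12.92 to 41.82 and 2.895 to 9.486 CPM, and every batch 2 library had some at 0. In wildtype these were Clec9a in replicate 3, and Flt3, Siglech and Cd209a in replicate 4. In knockout they were Xcr1, Clec9a, Flt3 and Siglech in replicate 4, and Siglech and Cd209a in replicate 5. NK cell markers (6 genes) were at 21.72 to 36.96 and 18.71 to 24.57 CPM. CD8 T cell markers (2 genes) were at 9.71 to 18.88 and 10.58 to 11.46 CPM, with Cd8a at 0 in 3 batch 2 libraries. Endothelial and stromal markers (7 genes) were at 194.1 to 233.4 and 160.0 to 196.2 CPM. Most of each sum was Pecam1 alone, at 164 to 218 and 153 to 194 CPM. Col1a2 and Pdgfra were at 0 in every batch 2 library. Erythroid markers (6 genes) were at 4.143 to 51.70 CPM in batch 1 and 96.93 to 1820 CPM in batch 2, highest in wildtype replicate 3. CD4 T cell markers were at 3262 to 4031 and 4206 to 4828 CPM, lowest in knockout replicate 3.

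Cell state lists are given beside the members. The 18 proliferation genes summed to 3535 and 2085 CPM in the wildtype and 1128 and 1530 CPM in the knockout libraries of batch 2, and to 1261 and 716.6 against 912.8, 1341 and 844.5 CPM in batch 1. In batch 2 all 18 had negative fold changes (median -1.05), against 52.2% of all genes, and 0 were called (14 at an unadjusted p under 0.05 in edgeR, against 7.77% of all genes). The 10 T helper 1 genes, Ifng among them, summed to 539.1 and 1012 CPM in wildtype against 454.6 and 655.7 CPM in knockout libraries of batch 2, which overlap, with 9 of 10 genes negative, a median of -0.63 and 0 called. In batch 1 the medians of the proliferation and T helper 1 lists were -0.0010 and -0.05, with 0 called. Their part in the members' values was not tested. With 2 or 3 libraries a group, and nothing in the labels on whether libraries came from separate mice, the p-values measure only the spread between these libraries.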

How the data were processed

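RNA was measured in CD4+ T cells on day 9 of EAE in 4 wildtype and 5 knockout samples, grouped by genotype and batch per the labels. The authors deposited gene-level estimated counts, not scaled to a common depth, of 39253 genes. The submitters' processing notes list Salmon 1.2.0, R 4.0.3 and GRCm39 and give no roles. For the annotation, strand setting and filters, the sources used here give nothing. Counts were rounded to whole numbers, and CPM are counts per library total. Nonzero values were fractional, and whether length scaling or fractional read assignment made them so cannot be told apart. Within each batch, edgeR 4.0.16 (R 4.3.3; quasi-likelihood, robust, TMM, default filter with minimum count 10 and minimum total 15) compared genotypes, and a model of all 9 libraries gave the batch term, the genotype with batch as a term and the interaction. P-values were adjusted by Benjamini-Hochberg over all genes tested, with a threshold of 0.05. A floor of 3 counts was 0.043 to 0.609 CPM, which covers counting error only, and the lowest count of a member was 63. Standard errors come from the quasi-likelihood F statistic. The tests were checked on simulated data with the same spread for every gene, which need not be the spread of these libraries. In batch 1 the edgeR test recovered 1.49% of 1.5-fold, 23.9% of 2-fold and 71.2% of 4-fold changes. In batch 2 it recovered 1.49%, 19.4% and 84.8%, and the interaction test recovered 2.99% of 2-fold changes. A lack of calls therefore does not show that the members were unchanged.

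Members and lists were chosen with earlier results of these data known. Named genes are the 10 members, 8 interferon gamma pathway genes, 7 relatives, the up to 3 smallest p of each other list in each batch (of which a part is printed) and the 8 genes most like the members, and 1 gene that the rule names is not reported here. F830016B08Rik and Gm4951 fall under the list rule. Sex markers, Esr1, Ddx3y and the marker genes at 0 were named to describe libraries. Promoters are RefSeq windows of GRCm38.p6, and lengths per kb are merged exons of GENCODE M21 (GRCm38), used in place of the coding length first planned. Coordinates are given for the promoter windows only, because the submitters' processing notes name another build, GRCm39. Alternatives were upper-quartile scaling, DESeq2 1.42.0 (its size factors, its Wald test), no filter or a stricter one, limma 3.58.1 voom, 1 fit of all samples, no batch term, a replicate block and leaving out each library. Libraries of the same group and batch differed by more than sampling noise.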

Additional observations from a re-analysis of the deposited data

Results flagged for a closer look

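Gbp9 in wildtype replicate 1 stood at 216 CPM, apart from the other 3 wildtype libraries, which were at 130 to 143 CPM. The gap to the nearest of them, divided by the range of the group, passed Dixon's 95% limit for 4 libraries. It was the 1 group past the limit among 26 groups examined, which pool both batches, and chance alone passes about 1 in 20 such groups. The other libraries of batch 1 had Gbp9 at 98.8 to 199 CPM. Without wildtype replicate 1 the batch 1 log2 fold change of Gbp9 was 0.07, against -0.46 with it.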

How the results depend on the processing

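No member was called under any of the 13, 11, 17 and 16 alternatives of the batch 1, batch 2, batch with genotype, and interaction comparisons (lowest adjusted p of a member 0.566, 0.203, 0.814 and 0.578). For the batch term, 0 were called in 14 of 15 and 4 without knockout replicate 2 (lowest adjusted p 0.00994). Signs were less stable: 31 of 169 single-gene values changed sign in batch 1 and 10 of 143 in batch 2, and the cause was not tested. Genes called in batch 1 numbered 31 (18 higher), against 56 (31 higher) with DESeq2 size factors, 6 (1 higher) with upper-quartile scaling, 68 without a filter, 12 (3 higher) with limma-voom, 3 in 1 fit of all 9 samples, and 58 with the replicate block. The type I interferon call fell from 1 to 0 with upper-quartile scaling and in 1 fit of all samples. In batch 2, 34 genes were called without a filter and 329 (60 higher) by DESeq2's Wald test, with 1 type I interferon gene, against 0. For batch with genotype the counts were 2 (no filter), 14 (DESeq2) and 0 (no batch term), against 1. For the interaction they were 2 (no filter), 167 (DESeq2), 0 (limma-voom) and 355 (replicate block), against 1. The batch term called 25837 genes without a filter, against 14221, as more genes were tested.

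Batch 1 log2 fold changes that changed sign were those of Gbp4 (-0.0976 with DESeq2 size factors, -0.0177 without a filter, -0.0974 with DESeq2's Wald test, -0.0217 with limma-voom), Irf1 (-0.0358, -0.0357 and -0.0116 with DESeq2 size factors, Wald test and voom) and Irgm1 (0.0002 with upper-quartile scaling, 0.0217 in 1 fit of all samples). In batch 2, Gbp6 had 0.0408 with upper-quartile scaling. The replicate block gave 0.2623 for Gbp6, 0.2114 for Gbp7 and 0.3375 for Irgm1 in batch 1, and member medians of 0.48 in batch 1, 0.38 for batch with genotype and -0.34 for the interaction. Whether replicate numbers pair these libraries could not be settled (r of deviations 0.43, -0.45, -0.08 and -0.13 for numbers 1 to 4). The deviations of the wildtype libraries of a batch mirror each other, and number 3 joins libraries of different batches. In batch 2 no block could be fitted because the genotypes share a single number.

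Leaving out 1 library at a time gave 33 to 118 genes called in batch 1, a member median of -0.316 to 0.7128, and 0 to 3 type I interferon genes called. The ranges in batch 1 were -0.1849 to 1.2152 for Gbp2, -0.114 to 0.9271 for Gbp3, -0.4065 to 0.6444 for Gbp4, -0.2352 to 0.7678 for Gbp5, -0.7638 to 0.5425 for Gbp6, -0.5206 to 0.2432 for Gbp7, -0.8724 to 0.0746 for Gbp9, -0.5949 to 0.6579 for Irgm1, -0.1752 to 0.9839 for Igtp, -0.101 to 1.2333 for Iigp1 and -0.2615 to 0.4366 for Irf1. In batch 2, 0 to 879 genes were called, the most without wildtype replicate 4 and 268 without wildtype replicate 3, with 0 to 6 type I interferon genes. The ranges there were -0.2229 to 0.4039 for Gbp2, -0.1643 to 0.1554 for Gbp6, -0.0535 to 0.2446 for Gbp7, -0.0637 to 0.386 for Irgm1, -0.1631 to 0.39 for Igtp and -0.2671 to 0.0282 for Irf1. Batch with genotype called 0 to 3 genes, the interaction 1 to 238 with a member median of -0.6295 to 0.4774, and the batch term 0 to 4 members. Where an arm was left with 1 library, that library was assumed to vary like the other group. The errors of the members' log2 fold changes were 0.39 to 0.89 in batch 1 and 0.10 to 0.23 in batch 2. Differences within these errors were not detectable, and larger ones could also go uncalled. Iigp1 in batch 2 was such a case, at 0.50 ± 0.20 (edgeR adjusted p = 0.640).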
